A study of Mus musculus with 6 samples.

Results

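The mouse mitochondrial genome carries 37 annotated genes, and all 37 were present among the 54532 gene rows of the deposited liver table. They comprise 13 protein-coding genes, 2 ribosomal RNA (rRNA) genes and 22 transfer RNA (tRNA) genes, 28 of them on the + strand of the reference and 9 on the - strand. Members were all rows placed on chromosome MT, a rule that uses position alone, although the set was picked for description with earlier results of these data known. Their levels were compared between livers of 3 untreated control mice with floxed Notch1 alleles (genotype Notch1fl/fl) and 3 untreated mice lacking Notch1 in hepatocytes (genotype Hepatocyte Notch1 KO). The series was made to examine the part of Notch1 in the production of thrombopoietin by liver. The sources used here do not give the driver of Cre, the strain, the sex or the age of the mice, and RNA came from whole liver, so it includes cells in which Notch1 was not targeted. Nothing in the labels ties the libraries to litters, so p-values measure the spread among these 6 libraries.

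Mitochondrial DNA is a small circle inherited apart from the nuclear chromosomes. Its heavy and light strands are each transcribed as long precursors that span many genes, and tRNAs that lie between the other genes are cut out to free the rRNAs and messenger RNAs, most of which then receive short poly(A) tails. The messenger RNAs encode subunits of respiratory complexes I, III and IV and of ATP synthase, while the remaining subunits, and every protein that copies, transcribes and processes mitochondrial DNA, come from nuclear genes. Hepatocytes are rich in mitochondria. Nuclear chromosomes also hold old insertions of mitochondrial DNA, whose sequence can be identical to that of the mitochondrial genes.

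Levels are in FPKM, which counts fragments per kilobase of a gene after scaling between libraries, given as mean ± SD over n = 3 libraries per group where a mean is printed. Whole reads could be recovered from these values, and the libraries held 15612924 to 17511961 reads in genes. Notch1, the targeted gene, measured 0.618, 0.965 and 0.854 FPKM in controls 1 to 3 and 0.301, 0.540 and 0.292 in knockouts 1 to 3, with no overlap. All 5 hepatocyte markers checked (Alb, Apoa1, Apob, Ttr and Serpina1a) were expressed in each group, with a summed level of 44911 to 52643 FPKM in controls and 31966 to 42663 in knockouts. Summed mesothelial markers (6 genes, none at 0 in all libraries) ran from 4.95 to 50.6 FPKM in controls and from 84.5 to 144 in knockouts, and summed bile duct markers (5 genes) from 12.8 to 16.1 and from 23.6 to 32.7. Erythroid markers summed to 756 to 928 and to 374 to 762. Of these lists, the hepatocyte, mesothelial and bile duct sums did not overlap between the groups, while those of Kupffer cells, sinusoidal endothelium, stellate cells, neutrophils, lymphocytes, exocrine pancreas and erythroid cells did. Alb, at 33417 FPKM on average in controls, made up most of the hepatocyte sum. It was the 1 hepatocyte marker of 5 whose groups did not overlap, and the other hepatocyte markers overlapped. All knockouts lay above all controls in 5 of 6 mesothelial and 3 of 4 tested bile duct markers, where 9.2% of all genes tested did. The exocrine pancreas sum was 29.9 FPKM in knockout 2 and 6.54 to 16.9 in the other libraries. The part of these lists in the results below was not tested, and in whole liver fewer cells of a type and less RNA per cell cannot be told apart.

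Genes of the mitochondrial genome took a smaller share of the reads in every knockout library than in any control library. The share was 7.18%, 8.23% and 6.17% in controls 1 to 3 and 5.53%, 3.64% and 4.63% in knockouts 1 to 3, which gives 7.19% ± 1.03 against 4.60% ± 0.947 (SD, n = 3). Control 3 and knockout 1 were the closest libraries of the 2 groups, and knockout 2 was the lowest of all. This share needs no scaling between libraries. It is a description, with no test, since it sums over all members. Leaving out single libraries changed the difference between group means from -2.60 percentage points to between -3.11 and -2.08. Alb, which encodes albumin, took 6.56%, 8.38% and 7.58% of reads in controls 1 to 3 and 6.53%, 7.58% and 5.18% in knockouts 1 to 3. Those shares overlapped between the groups, and the mitochondrial genes together outweighed Alb in control 1 but not in any other library.

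Protein-coding genes held 97.1% ± 0.303 of the mitochondrial reads in controls and 97.6% ± 0.428 in knockouts. Of all mitochondrial reads, 6 of these genes (mt-Co1, mt-Cytb, mt-Nd1, mt-Nd2, mt-Nd4 and mt-Nd5) held 95.1% ± 0.208 and 95.7% ± 0.636. The rRNA genes contributed 2.47% ± 0.279 and 1.96% ± 0.348 of mitochondrial reads, and the tRNA genes 0.418% ± 0.0261 and 0.458% ± 0.0813.

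**Figure D1:**
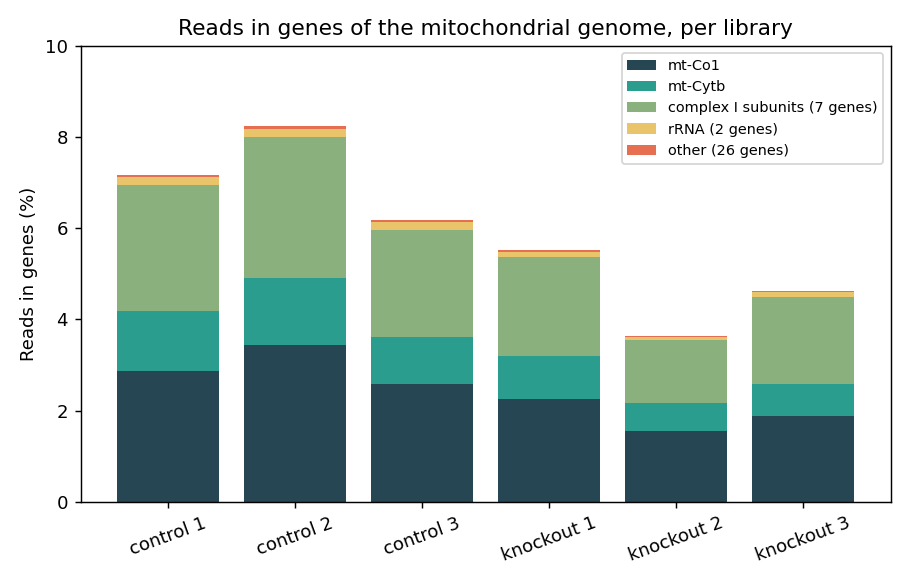
Stacked bars show the percent of each library's reads in genes that fell in mt-Co1, mt-Cytb, the 7 complex I genes, the 2 rRNA genes and the other 26 genes of the mitochondrial genome. The 3 control bars end between 6.17% and 8.23% and the 3 knockout bars between 3.64% and 5.53%, with mt-Co1 and the complex I genes as the thickest layers.

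Complex I, NADH dehydrogenase, takes electrons from NADH and contains 7 mitochondrially encoded subunits. The 5 of these genes with high values, mt-Nd1, mt-Nd2, mt-Nd4, mt-Nd5 and mt-Nd6, were lower in knockouts by ratios of 1.46 to 1.88. mt-Nd1 (chromosome MT, 2751 to 3707, + strand, build GRCm38) measured 9121, 9606 and 7128 FPKM in controls 1 to 3 and 7551, 4192 and 6015 in knockouts 1 to 3. Knockout 1 lay above control 3, so the groups overlapped, and the log2 fold change on the log2(FPKM + 1) scale was -0.57 (SE 0.28, limma adjusted p = 0.416). Without knockout 2 it was -0.34. mt-Nd2 (3914 to 4951, + strand) gave 7899, 8591 and 6397 in controls against 6075, 3125 and 4795 in knockouts, without overlap (log2 fold change -0.75, SE 0.29, adjusted p = 0.324, and -0.49 without knockout 2). mt-Nd4 (10167 to 11544, + strand) gave 4423, 4488 and 3179 against 3027, 1682 and 2137, also without overlap. Its log2 fold change was -0.85 (SE 0.27, adjusted p = 0.254). In both genes control 3 was the lowest control and knockout 1 the highest knockout.

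The last 2 complex I genes of the map lie next to each other on opposite strands. mt-Nd5 (11742 to 13565, + strand) measured 2877, 3630 and 2732 FPKM in controls and 2192, 1134 and 1707 in knockouts, and mt-Nd6 (13552 to 14070), the one protein-coding gene on the - strand, 2437, 2906 and 2122 against 1686, 825 and 1463. No knockout reached a control in either gene (log2 fold changes -0.92, SE 0.27, and -0.96, SE 0.29, with adjusted p of 0.225 and 0.234). mt-Nd5 and mt-Nd6 overlap by 14 bases. The sources used here do not say whether the libraries or the counting kept strand, so reads from RNA opposite to mt-Nd6 and from mt-Nd6 itself cannot be told apart. The sequences differ in make-up as the strands do: mt-Nd6 RNA is 28.1% G and 5.97% C, while mt-Nd5 RNA is 9.98% G and 27.1% C.

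mt-Cytb (14145 to 15288, + strand) encodes cytochrome b, the one mitochondrially encoded subunit of complex III, which passes electrons to cytochrome c. Its values were 12208, 13353 and 9012 FPKM in controls and 8658, 4693 and 5762 in knockouts, with a log2 fold change of -0.88 (SE 0.30, adjusted p = 0.279). mt-Co1 (5328 to 6872, + strand) encodes the catalytic subunit of complex IV, cytochrome c oxidase, which reduces oxygen. It was the highest member, at 19879, 23375 and 16913 FPKM in controls and 15207, 8805 and 11233 in knockouts, a ratio of group means of 1.71 (log2 fold change -0.80, SE 0.29, adjusted p = 0.303). Neither gene's groups overlapped, and knockout 1 came closest to the controls in both.

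Relative to the control mean of each gene, the 7 high genes stood in the same order of knockouts, with knockout 1 the highest and knockout 2 the lowest. mt-Nd6 held 67.8%, 33.1% and 58.8% of its control mean in knockouts 1 to 3, mt-Co1 75.8%, 43.9% and 56.0%, and mt-Nd1 87.6%, 48.6% and 69.8%. In each knockout mt-Nd1 kept the highest percentage of the 7. Its level relative to mt-Co1, a ratio within a library, was 45.9%, 41.1% and 42.1% in controls and 49.7%, 47.6% and 53.5% in knockouts, without overlap. The same ratio to mt-Co1 overlapped between groups for the other 5 genes. For mt-Nd2 it was 38.1% ± 1.51 against 39.4% ± 3.63, and for mt-Nd4 20.1% ± 1.89 against 19.3% ± 0.489.

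The rRNA genes encode the small and large RNAs of the mitochondrial ribosome. mt-Rnr2 (16S, 1094 to 2675, + strand) was tight among controls, at 811, 804 and 763 FPKM, and measured 487, 187 and 419 in knockouts. Its log2 fold change of -1.23 (SE 0.34, adjusted p = 0.207) was the largest of the 15 rRNA and protein-coding genes in size, and the groups did not overlap. Without knockout 2 it was -0.81. mt-Rnr1 (12S, 70 to 1024, + strand) gave 786, 608 and 439 in controls against 440, 211 and 309 in knockouts. Control 3 and knockout 1 were level in mt-Rnr1, and the log2 fold change was -0.96 (SE 0.31, adjusted p = 0.267). Poly-T capture takes RNA by its poly(A) tail, so these values do not measure how much rRNA the livers held. Of 8 nuclear RNAs that lack a poly(A) tail, 5 were at 0 in all libraries, and the sum was 8.09 FPKM in knockout 2, 2.22 in knockout 1 and lower in the other libraries. The part of such carry-over in the rRNA values was not tested.

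Ratios between classes within a library overlapped between the groups. The rRNA to protein-coding ratio of summed FPKM was 2.70%, 2.12% and 2.52% in controls and 2.07%, 1.62% and 2.18% in knockouts. The light-strand to heavy-strand ratio of protein-coding genes, which here is mt-Nd6 against the 12 others, was 4.51% ± 0.187 against 3.99% ± 0.568. Summed tRNA genes stood at 8.06% ± 0.532 and 8.73% ± 1.53 of summed protein-coding genes, and the ratio of mt-Rnr1 to mt-Rnr2 was 0.767 ± 0.198 in controls and 0.921 ± 0.195 in knockouts. None of these ratios separated the groups.

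**Figure D2:**
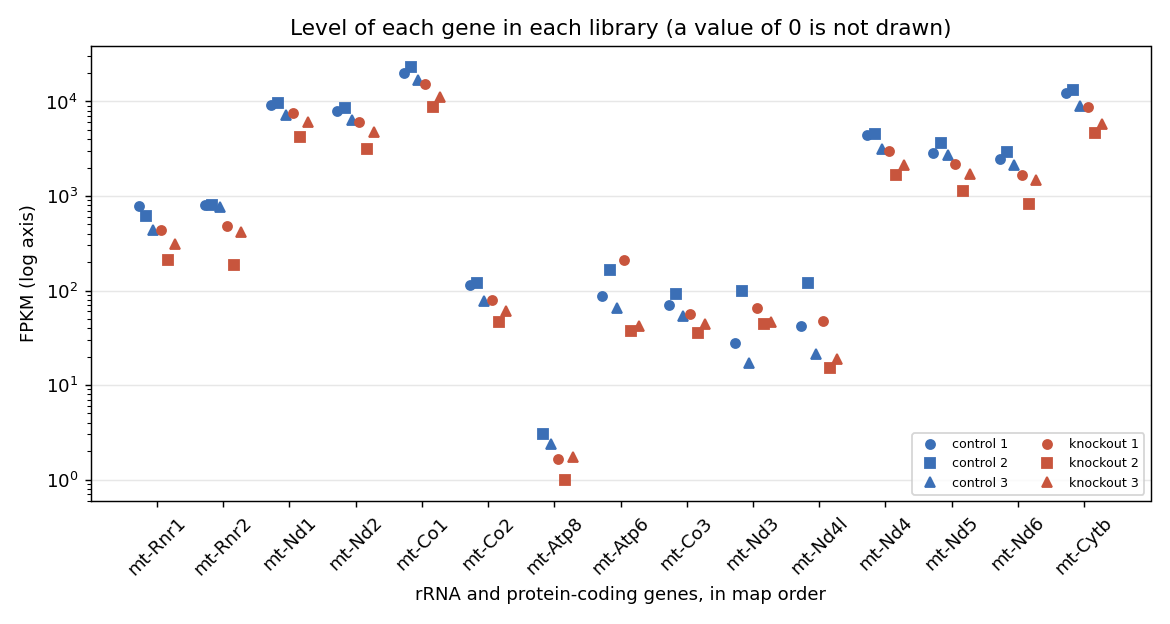
Points show FPKM (log axis) of the 2 rRNA and 13 protein-coding genes in map order, in each of 3 control (blue) and 3 knockout (red) libraries. mt-Co2, mt-Atp6, mt-Co3, mt-Nd3 and mt-Nd4l lie between 15.3 and 211 FPKM, while the other protein-coding genes except mt-Atp8 lie between 825 and 23375.

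A block of neighbouring genes between mt-Co1 and mt-Nd4 read far lower than the genes on either side. mt-Co2 and mt-Co3, the other core subunits of complex IV, averaged 104 ± 23.6 and 72.1 ± 19.2 FPKM in controls, against 20055 ± 3235 for mt-Co1. mt-Atp6 and mt-Atp8, the mitochondrially encoded subunits of ATP synthase, averaged 106 ± 51.9 and 1.81 ± 1.60. mt-Nd3 and mt-Nd4l, small subunits of complex I, averaged 47.6 ± 43.9 and 61.2 ± 51.6. These 6 genes occupy positions 7013 to 10173 of the mitochondrial map.

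Of the 6, 5 have an almost exact copy among annotated nuclear transcripts. Of all windows of 100 bases in mt-Co2, 99.5% were found letter for letter in a nuclear transcript of the GENCODE M21 annotation, and the shares were 99.5% for mt-Atp6, 99.9% for mt-Co3, 97.6% for mt-Nd3 and 98.5% for mt-Nd4l. The copies are pseudogenes side by side on the - strand of chromosome 1, from Gm28439 (starting at 24611535) to Gm29216 (ending at 24616197). The share was 60.8% for mt-Nd4 and 30.8% for mt-Co1, whose exact matches cover only part of each gene, 3.19% for mt-Nd2, and 0% for mt-Nd1, mt-Nd5, mt-Nd6, mt-Cytb and both rRNA genes. The search covered annotated transcripts only, so copies outside them were not looked for. mt-Atp8 had a share of 0% in that search and the lowest level, while mt-Co1, at 30.8%, had the highest. Both rRNA genes, at 0%, read lower than mt-Nd4, at 60.8%, in libraries captured by poly(A) tail. On chromosome 1 a stretch without a listed copy separates Gm10925 and Gm28661, the copies of mt-Atp6 and mt-Co2, and it was not analysed here. mt-Atp8 also overlaps mt-Atp6 by 43 of its 204 bases.

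The sources used here do not say how reads that match more than 1 place were counted. Values of the 5 genes with an almost exact copy are therefore uncertain as levels of the mitochondrial transcripts, and those of mt-Nd4 and mt-Co1 are so in part. mt-Atp8 had no such match among annotated transcripts. The stretch of chromosome 1 between the copies of mt-Co2 and mt-Atp6, the protein-coding genes on either side of it, was not analysed. Values of mt-Atp8 are uncertain for that reason and because they rest on 0 to 10 reads a library. The cause of the low level of the 6 genes was not tested.

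**Figure D3:**
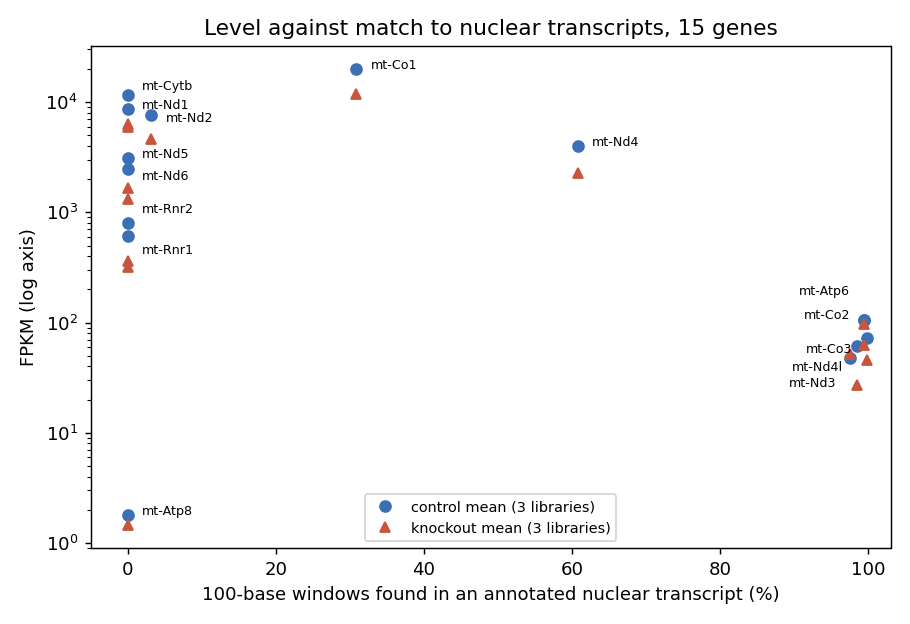
Each gene is drawn at the percent of its 100-base windows found in an annotated nuclear transcript (x axis) and its mean FPKM (log axis) in 3 control (blue circles) and 3 knockout (red triangles) libraries, with names in order of control mean. The 5 genes with 97.6% to 99.9% of windows matched have control means of 47.6 to 106 FPKM, and mt-Atp8, with 0% matched, has 1.81.

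The nuclear copies drew reads in every library, and together took 0.0276% ± 0.00304 of reads in controls and 0.0155% ± 0.00384 in knockouts. Where a copy and its mitochondrial gene are identical in sequence, their reads cannot be told apart. Values of the copies are therefore uncertain as levels of nuclear transcripts. All 10 copies checked had at least 10 reads in a library. The 7 on chromosome 1 averaged 29.1 (Gm28439, copy of mt-Nd4) to 114 FPKM (Gm10925, copy of mt-Atp6) in controls and 14.7 to 65.8 in knockouts, and the 3 on chromosome 2 (Gm13339, Gm13340 and Gm13341, copies of mt-Nd2, mt-Co1 and mt-Co2) 2.82 to 7.41 and 2.29 to 4.41. Of the 10, 10 had lower mean log2 values in knockouts, where 51.9% of all 12022 genes tested did, and 0 passed an adjusted p of 0.05, where 0.025% did, with a median log2 fold change of -0.81 against -0.0081 over all genes tested. Gm10222, the copy of mt-Nd4l, had the smallest p, with 33.9 ± 2.53 against 15.7 ± 5.95 (adjusted p = 0.137).

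The pair of mt-Nd3 and Gm28438 divided its reads in another way from library to library. The 345 bases of Gm28438 (chromosome 1, 24612775 to 24613119, - strand) match mt-Nd3 (chromosome MT, 9459 to 9806, + strand) at all positions but 1. That difference is T3C, counted from the first base of mt-Nd3, the third base of its first codon, at position 9461 of the mitochondrial map. The first 60 bases of both are shown because this single letter is all that separates them over the bases of Gm28438, and it is in capitals.
mt-Nd3: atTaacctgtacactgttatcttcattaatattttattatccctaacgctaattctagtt
Gm28438: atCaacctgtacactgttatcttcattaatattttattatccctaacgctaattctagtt

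mt-Nd3 measured 27.6, 98.0 and 17.3 FPKM in controls 1 to 3 and 65.1, 44.0 and 46.9 in knockouts 1 to 3. Gm28438 was high where mt-Nd3 was low among controls, at 119, 22.3 and 139, and gave 22.3, 9.83 and 11.9 in knockouts. Of the reads in either gene, mt-Nd3 held 18.9% in control 1 and 11.1% in control 3, but 81.6% in control 2 and 74.7%, 81.9% and 79.9% in the knockouts. Controls 1 and 3 therefore stood apart from the other 4 libraries, which include a control. Added together, the pair measured 146, 120 and 155 FPKM in controls and 87.2, 53.7 and 58.7 in knockouts, without overlap, a log2 fold change of -1.09 (SE 0.20, adjusted p = 0.113). As deposited, mt-Nd3 alone had a log2 fold change of 0.49 (SE 0.57, adjusted p = 0.764), so its direction turned when the copy was added, an alternative chosen after seeing the data. Without control 3 that of mt-Nd3 alone was -0.026. Which letter the reads carried at this position was not analysed here.

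mt-Atp6 and mt-Nd4l, whose chromosome 1 copies match them without a mismatch, also varied by library. For mt-Atp6 the level was 88.6, 164 and 64.6 FPKM in controls and 211, 37.5 and 42.4 in knockouts, with knockout 1 the highest of all 6 libraries. mt-Atp6 held 70.1% of the reads of its pair with Gm10925 in knockout 1 and at most 56.2% in the others. Added together, that pair measured 216, 292 and 150 FPKM in controls and 302, 87.0 and 99.1 in knockouts, with knockout 1 still the highest. mt-Nd4l gave 42.6, 120 and 21.5 in controls against 48.0, 15.3 and 18.7 in knockouts, and control 2 was the highest. It held 79.6% of the reads of its pair with Gm10222 in control 2, 68.3% in knockout 1 and 38.0% to 58.6% elsewhere. Added together, mt-Nd4l and Gm10222 measured 77.6, 150 and 56.5 against 70.2, 26.5 and 31.9, with control 2 still the highest. Both sums overlapped between groups. With copies added, the log2 fold changes were -0.62 for mt-Atp6 and -1.14 for mt-Nd4l (limma adjusted p = 0.616 and 0.337). As deposited, the log2 fold changes of these 2 genes, -0.48 (SE 0.68) for mt-Atp6 and -0.97 (SE 0.65) for mt-Nd4l, had adjusted p of 0.803 and 0.562. Single libraries decided these sizes: mt-Atp6 was -1.27 without knockout 1, -0.043 without knockout 2, -0.13 without knockout 3, -0.11 without control 2 and -0.78 without control 3. mt-Nd4l was -0.32 without control 2 and -1.53 without control 3.

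mt-Co2 and mt-Co3 were steadier. mt-Co2 measured 116, 120 and 77.3 FPKM in controls and 80.2, 46.9 and 61.2 in knockouts (log2 fold change -0.73, SE 0.24, adjusted p = 0.267). mt-Co3 measured 70.1, 92.2 and 54.0 against 56.8, 35.8 and 44.8 (log2 fold change -0.64, SE 0.23, adjusted p = 0.308). In both genes knockout 1 lay just above control 3. mt-Co2 held 59.5% to 67.5% of the reads of its pair with Gm28661, and mt-Co3 47.8% to 59.4% with Gm28437. mt-Atp8 rested on 0 to 10 reads a library and is not described further.

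**Figure D4:**
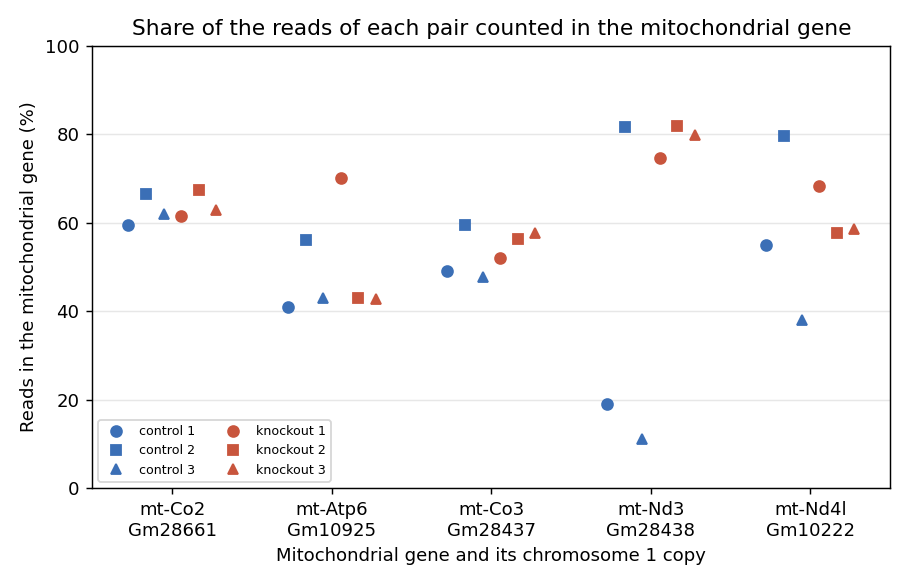
Points give, for 5 mitochondrial genes and their chromosome 1 copies, the percent of the reads in either gene that were counted in the mitochondrial gene, in each of 3 control (blue) and 3 knockout (red) libraries. For mt-Nd3, controls 1 and 3 sit at 18.9% and 11.1% and the other 4 libraries between 74.7% and 81.9%.

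The 22 tRNA genes carry amino acids to the mitochondrial ribosome and are shorter than typical library fragments. Their FPKM is therefore not comparable with that of longer genes, and reads may extend into their neighbours. As for the rRNA genes, RNA was captured by its poly(A) tail, so these values do not measure how much tRNA the livers held. Of the 22, 16 passed the filter of a mean of at least 0.5 FPKM. Of the other 6, mt-Tf, mt-Ts1 and mt-Td had 0 reads in all libraries, which by counting error alone allows up to 3 reads in each. mt-Tt, mt-Tv and mt-Tk had 1 or 2 reads in all. mt-Ts1 and mt-Td lie between mt-Co1 and mt-Co2, and mt-Tk, mt-Tg and mt-Tr between mt-Co2 and mt-Nd4l. The stretches of chromosome 1 between the copies of those genes were not analysed here. The part of reads that match more than 1 place in these low counts was not tested. The 4 tRNA genes with the most reads over the 6 libraries all lie on the - strand: mt-Tp (proline, 14260 reads), mt-Tc (cysteine, 5074), mt-Tn (asparagine, 3367) and mt-Te (glutamate, 908). As for mt-Nd6, reads of tRNA genes on the - strand cannot be told apart from reads of RNA opposite to them.

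mt-Tp measured 2836, 2934 and 2179 FPKM in controls and 2228, 1161 and 1783 in knockouts, with knockout 1 just above control 3 (log2 fold change -0.66, SE 0.27, adjusted p = 0.350, and -0.40 without knockout 2). mt-Tc gave 991, 943 and 939 in controls against 838, 249 and 806 in knockouts, and mt-Tn 630, 560 and 513 against 610, 162 and 475. For both, knockout 2 lay far below the other 5 libraries, and the log2 fold changes were -0.79 (SE 0.45, adjusted p = 0.482) and -0.65 (SE 0.46, adjusted p = 0.582). Without knockout 2 they were -0.22 and -0.072. mt-Te gave 166 ± 16.5 FPKM in controls against 105 ± 43.9 in knockouts, with a log2 fold change of -0.76 that was -0.34 without knockout 2.

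mt-Tm, the tRNA for methionine, which also starts mitochondrial translation, had the smallest p of all members. It measured 13.5, 15.4 and 13.1 FPKM in controls and 1.94, 1.45 and 4.24 in knockouts, from 14, 17 and 15 reads against 2, 2 and 5. The groups were well apart, with a log2 fold change of -2.16 (SE 0.27, adjusted p = 0.0877, and 0.0208 to 0.245 over 18 alternatives), and the ratio of means was 5.51. It passed the threshold in 1 alternative, without knockout 3 (0.0208). Its neighbours differed less: mt-Nd2, which begins at the next base, had a ratio of means of 1.64, and mt-Tq, 2 bases before it on the other strand, rested on 0 to 11 reads a library. The sequences of mt-Tm and of the 3 tRNA genes with the most reads are shown, each 5′ to 3′ on its own strand in GRCm38, with the anticodon in capitals.
mt-Tm: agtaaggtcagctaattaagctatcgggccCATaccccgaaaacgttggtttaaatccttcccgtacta
mt-Tp: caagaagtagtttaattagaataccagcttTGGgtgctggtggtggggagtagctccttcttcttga
mt-Tc: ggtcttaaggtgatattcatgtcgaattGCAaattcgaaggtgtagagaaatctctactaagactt
mt-Tn: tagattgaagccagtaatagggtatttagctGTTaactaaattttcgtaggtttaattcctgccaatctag

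mt-Tm lies at 3845 to 3913 on the + strand, mt-Tp at 15356 to 15422, mt-Tc at 5192 to 5257 and mt-Tn at 5089 to 5159, the last 3 on the - strand. None of the 4 shared a 50-base window with an annotated nuclear transcript. Other tRNA genes without overlap between groups were mt-Ty (tyrosine, 81.8 ± 9.20 against 34.6 ± 23.7 FPKM), mt-Tw (tryptophan, 33.0 ± 8.15 against 18.1 ± 6.46), mt-Ts2 (serine, 22.8 ± 2.28 against 15.2 ± 2.24), mt-Te and mt-Tc, with adjusted p of 0.166 to 0.482. The log2 fold change of mt-Tw, -0.87, was -0.57 without knockout 2. mt-Ti (isoleucine) was the only member with all knockouts above all controls, at 2.90, 5.43 and 8.72 FPKM in controls and 8.72, 11.6 and 9.32 in knockouts, from 3 to 16 reads (log2 fold change 0.79, SE 0.31, adjusted p = 0.331, and 0.45 without control 1). The lowest knockout and the highest control agree there to the digits given, from 9 and 10 reads. The remaining tested tRNA genes, mt-Tl1, mt-Tl2, mt-Th, mt-Tq, mt-Tg, mt-Tr and mt-Ta, overlapped between groups and had log2 fold changes of -1.27 to 0.80.

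Across the members, 31 of 37 had a mean of at least 0.5 FPKM and were tested with limma among 12022 genes. With Benjamini-Hochberg adjustment over all genes 0 of the 31 passed 0.05, where 0.025% of all genes tested did (3 genes). At an unadjusted p under 0.05 there were 15 lower and 1 higher members, where 7.06% of all genes were lower and 6.83% higher by that measure. The count of lower members was 9 without control 1 and 5 without control 2. With limma voom on the recovered reads, 0 members passed and 16 had an unadjusted p under 0.05 in the lower direction. All knockouts lay below all controls in 13 members, where 10.6% of all genes did, and above in 1, where 9.2% did. The 31 tested members had a median log2 fold change of -0.78, against -0.0081 over all genes tested. By class the medians were -0.75 for the 13 protein-coding genes, -1.09 for the 2 rRNA genes and -0.77 for the 16 tRNA genes tested. Members share precursors and libraries, so they are not independent of each other. Scaling by total reads moved the median of all genes from -0.0081 to 0.097 and that of the protein-coding members to -0.61.

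**Figure D5:**
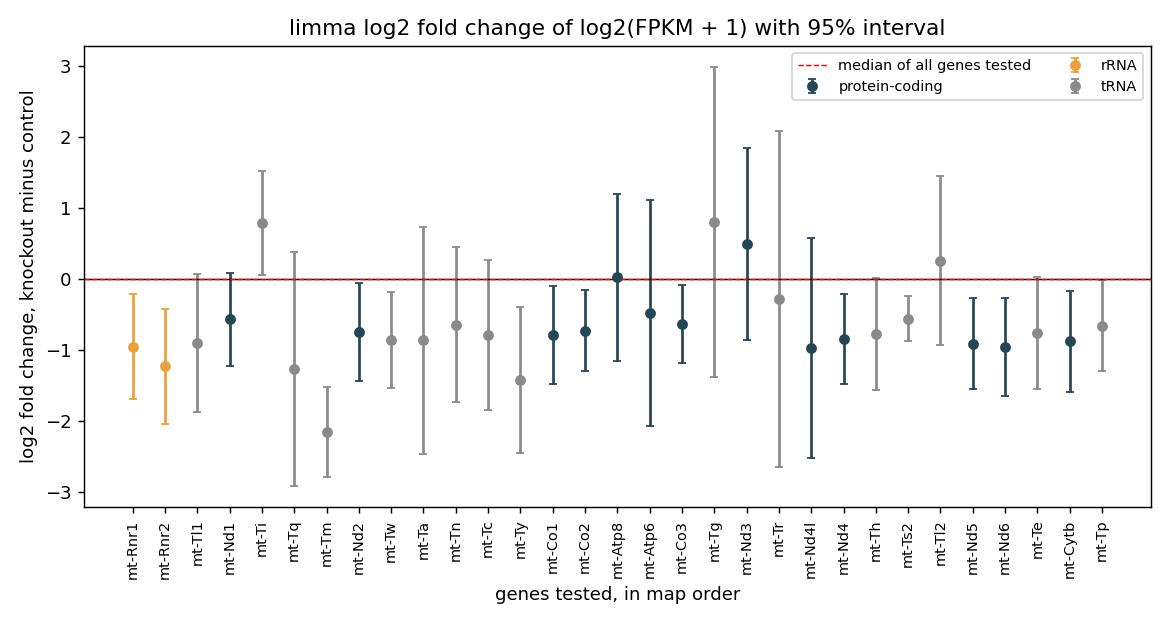
Points are limma log2 fold changes (knockout minus control, on the log2(FPKM + 1) scale) of the 31 tested genes in map order, with bars for the 95% interval, coloured by class. Of the 31 points, 26 lie below 0, mt-Tm is the lowest at -2.16, and the dashed line marks the median of all genes tested at -0.0081.

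Summed levels of the nuclear-encoded subunits of the same complexes overlapped between the groups. Summed FPKM of 36 nuclear complex I genes was 2979, 3031 and 2609 in controls and 2707, 3173 and 2549 in knockouts, and that of 11 complex IV genes 3746, 3787 and 3238 against 3266, 3644 and 3022. Knockout 2, the lowest library for the mitochondrial genes, was the highest of 6 for the nuclear complex I genes. Summed mitochondrial over summed nuclear FPKM for complex I was 9.01, 9.71 and 8.28 in controls and 7.63, 3.47 and 6.35 in knockouts. For complex III it was 5.78, 6.26 and 4.75 against 4.58, 2.15 and 3.24, and for complex IV 5.36, 6.23 and 5.26 against 4.70, 2.44 and 3.75. In these 3 complexes the ratio was lower in every knockout than in any control. For ATP synthase, whose mitochondrial genes are both among those with uncertain values, it overlapped. These ratios are descriptions without a test.

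Of 71 nuclear subunit genes of complexes I, III and IV and ATP synthase tested, 0 passed the threshold, where 0.025% of all genes tested did. Of the 71, 55 had lower and 16 higher mean log2 values, where 51.9% of all genes were lower, and the median log2 fold change was -0.082 against -0.0081. At an unadjusted p under 0.05, 2 were lower (Ndufs1 and Ndufa10, both of complex I) and 0 higher, where 7.06% of all genes were lower and 6.83% higher. Ndufs1 stood at 14.2 ± 1.66 FPKM in controls against 11.2 ± 0.782 in knockouts, and Ndufa10 at 58.3 ± 8.11 against 46.8 ± 0.771 (adjusted p = 0.291 and 0.336). In the other complexes the smallest p belonged to Uqcrb (209 ± 24.9 against 184 ± 1.72) and Uqcrc2 (93.0 ± 8.98 against 84.7 ± 7.84) of complex III, Cox5a (84.9 ± 5.98 against 71.7 ± 6.25) and Cox7b (276 ± 33.7 against 226 ± 17.1) of complex IV, and Atp5a1 (384 ± 10.9 against 322 ± 14.8) and Atp5j (77.5 ± 4.85 against 69.1 ± 3.70) of ATP synthase.

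Of 4 lists, for transcription, processing and modification of mitochondrial RNA and for tRNA charging, 3 overlapped between the groups in summed FPKM. The exception was processing and stability, at 220 to 254 in controls and 193 to 211 in knockouts. The largest part of that sum was Hsd17b10, at 109 ± 9.56 FPKM in controls and 86.5 ± 7.88 in knockouts. Of 16 genes tested in that list, 10 had lower and 6 higher mean log2 values, where 51.9% of all genes were lower. Of 61 genes tested in the 4 lists, 0 passed the threshold (0.025% of all genes did), 22 had higher and 39 lower mean log2 values (51.9% of all genes were lower), and the median log2 fold change was -0.053. At an unadjusted p under 0.05, 3 were higher and 5 lower, where 6.83% and 7.06% of all genes were. Among 13 tested genes of transcription and the nucleoid, the smallest p were those of Polg, the DNA polymerase (3.24 ± 0.166 against 2.85 ± 0.0872 FPKM), and Mterf2, of the family of mitochondrial termination factors (1.24 ± 0.552 against 0.758 ± 0.206). Among 16 of processing and stability they were those of Grsf1, an RNA-binding protein of mitochondrial RNA granules (34.7 ± 2.76 against 27.5 ± 1.53, adjusted p = 0.238), and Elac2, which cuts the 3′ ends of tRNAs (6.30 ± 0.106 against 7.63 ± 0.189, adjusted p = 0.264).

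Among 16 genes of rRNA and tRNA modification, Gtpbp3 and Trit1, tRNA-modifying enzymes, measured 1.89 ± 0.266 against 2.54 ± 0.269 and 7.36 ± 1.06 against 5.83 ± 0.799 FPKM. Among 16 mitochondrial aminoacyl-tRNA synthetases, which charge tRNAs, Lars2 measured 5.94 ± 1.29 against 8.63 ± 0.860 and Nars2 3.75 ± 0.281 against 2.54 ± 0.738. The adjusted p of these 4 lay between 0.234 and 0.388. Of 6 nuclear regulators of mitochondrial content, 0 passed, where 0.025% of all genes did, and 0 had an unadjusted p under 0.05, with Pprc1 at 1.41 ± 0.572 against 0.969 ± 0.106 and Ppargc1a, the coactivator known to drive mitochondrial biogenesis, at 1.26 ± 0.414 against 0.966 ± 0.462.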

How the data were processed

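Per the labels' protocols, liver RNA was isolated with Trizol, captured on poly-T beads and made into libraries with a NEBNext Ultra RNA kit. HISAT2 2.0.5, featureCounts 1.5.0-p3 and build GRCm38 are listed, without settings, per the submitters' processing notes. The authors deposited FPKM per gene and library. Knockout columns carry the group's name, and the control columns, named NC, were assigned by elimination (0 value columns were left unused). Multiplied by gene length, 100% of nonzero values came to whole reads (tolerance 0.1 read) once divided by a constant of the library, which followed median-of-ratios size factors (0.911 to 1.22). All 37 genes had the same coordinates in GENCODE M21.

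The test used limma 3.58.1 in R 4.3.3 on log2(FPKM + 1) for genes averaging 0.5 FPKM or more (lmFit, eBayes with trend, two-sided, Benjamini-Hochberg over all genes, threshold 0.05), after a test on simulated data. The pseudocount of 1 understates changes of low genes. Reads are counts of whole reads recovered, and floors of 3 reads cover counting error only. The 95% intervals drawn are those of limma, from the spread among libraries. Sequences came from GENCODE M21 transcripts, compared with Python 3.11.15 and Biopython 1.88. Genes named were Notch1, protein-coding and rRNA members with a value in each library, tested tRNA genes and the 4 with most reads, per list any gene called and the 2 with the smallest p, and copies with at least 10 reads in a library. mt-Atp8, Hsd17b10 and the untested tRNA genes were named after their values were seen. Alternatives covered pseudocounts, filters, scaling, weights, voom, the replicate block, left-out libraries and added copies. Members and lists were chosen with earlier results of these data known. Deviations from group means correlated at 0.31, 0.16 and 0.10 between same-numbered libraries and at -0.25 to 0.11 between others, so the replicate number was used as a block in an alternative; this pairing comes from the values, not the labels.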

Additional observations from a re-analysis of the deposited data

How the results depend on the processing

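The 31 tested members were refitted under 18 alternatives (17 fixed with the design, and the addition of chromosome 1 copies, chosen after seeing the data). Of 558 values 546 kept their direction and side of the threshold and 11 changed sign, in 4 members that did not pass. mt-Nd3 reversed when its copy was added (-1.09) and without control 3 (-0.026). mt-Atp8 reversed with quantile normalization (-0.0066) and without control 1 (-0.61), knockout 1 (-0.043) and knockout 3 (-0.065). mt-Tl2 reversed with array weights (-0.021) and without control 1 (-0.23) and knockout 2 (-0.015), and mt-Tr without control 2 (0.69) and knockout 2 (0.45). With single libraries left out, mt-Nd3 reached 1.19, mt-Atp8 0.40 and mt-Tl2 0.75 (each without control 2), and mt-Tr -1.16 (without control 3). The number of members that passed was 0 throughout, except 1 (mt-Tm) without knockout 3, so leaving out libraries gave 0 to 1. The median log2 fold change of the protein-coding members was -0.999 (without knockout 1) to -0.54 (without knockout 2) when single libraries were left out. Over all genes 3 passed, against 1 with a pseudocount of 0.1, 0 with no filter and 15 with voom. Leaving out single libraries gave 0 (control 2 or knockout 1) to 70 (control 3), with 1 without control 1, 2 without knockout 3 and 30 without knockout 2. With the replicate number as a block 0 genes passed over all genes, and the block changed no call of a member. Quantile normalization, which sets the highest values of all libraries equal, brought mt-Co1 to -0.25. At 0 to 17 reads a library, tRNA genes such as mt-Tm, mt-Ti and mt-Tq are limited by depth.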
